A study of Homo sapiens with 2 samples.

Results

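The subject here is a group of 10 genes that encode large histone methyltransferases and their close SET-domain relatives, KMT2A, KMT2B, KMT2C, KMT2D, KMT2E, SETD1A, SETD1B, SETD2, SETD5 and NSD1. Their RNA was examined in a precipitation of CRTC2, which coactivates CREB-dependent transcription, from wild-type HCCLM3 cells, a human line derived from hepatocellular carcinoma. RNA that came down with CRTC2 (RNA immunoprecipitation sequencing, RIP-seq) was set against input RNA, with 1 library of each and no added treatment named in the labels. The study asked which transcripts CRTC2 associates with, in the setting of condensates it forms with YTHDF2, a protein that binds N6-methyladenosine in mRNA. A precipitation with a control antibody was not analysed here, so RNA bound to CRTC2 and RNA carried over by the procedure cannot be told apart.

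The genes were chosen by name, with earlier results of these data known, and their values are therefore given as a description without a test. A peak was credited to the gene named in its exon or intron annotation, and otherwise to the gene with the nearest start site. By this rule 19480 genes were credited with a peak, and the 10 methyltransferase genes held 424 of 175546 peaks, or 0.242%. All 424 lay on the main chromosomes, on 7 of them. The folds and q-values below are the authors' values for each peak, and the fold is the linear ratio of RIP over input at the peak's summit. The list is permissive. A −log10 q of 0 was given for 88.8% of all peaks and for 341 of these 424, so a listed peak alone is weak evidence of enrichment. The bracketed range after a fold is an exact 95% Poisson interval of the RIP fragments at that summit with the input level held fixed, and it covers counting error only. Peaks are called exonic when they lie in an exon of the gene or in its UTR within the assigned transcript. Peaks within 3000 bp of a start site form a promoter class of their own in the deposited annotation, and peaks carry no strand, so sense and antisense RNA cannot be told apart.

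Methylation of lysine 4 and lysine 36 on histone H3 marks active genes. KMT2A and KMT2B, which work with the tumour suppressor menin, and SETD1A and SETD1B methylate lysine 4 at promoters, while KMT2C and KMT2D place the monomethyl mark on lysine 4 at enhancers. SETD2 places trimethylation of lysine 36 behind elongating RNA polymerase and NSD1 dimethylates the same residue, largely between genes. KMT2E and SETD5 carry related SET domains, and whether they methylate histones themselves is debated. KMT2C, KMT2D and KMT2B are recurrently mutated or disrupted in liver cancer.

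All 10 genes carried exonic peaks, and 7 of them had at least 1 exonic peak at q of at most 0.05, namely KMT2A, KMT2B, KMT2C, KMT2D, SETD1B, SETD5 and NSD1. Over all genes with an exonic peak this was so for 12.5% (1347 of 10735), and over genes with at least 10 exonic peaks, the number of the methyltransferase gene with the fewest, for 34.1% (719 of 2110). The methyltransferase genes had a median of 21.5 exonic peaks (10 to 61), against 4 per gene over the list. A gene with more peaks has more chances to hold 1 past the limit. The shares were not matched for peak number beyond that minimum, and its part in them was not tested. Among single peaks, 25 of 424 in the methyltransferase genes reached this q, or 5.9% (exact binomial 95% interval 3.85 to 8.58), against 1.63% of all peaks in the list. SETD1B held 9 of the 25, and the other 9 genes together held 16 of 409, or 3.91% (2.25 to 6.28). With 1 library per group none of these differences has a replicate check, and nothing is read from them about the choice of genes.

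**Figure D1:**
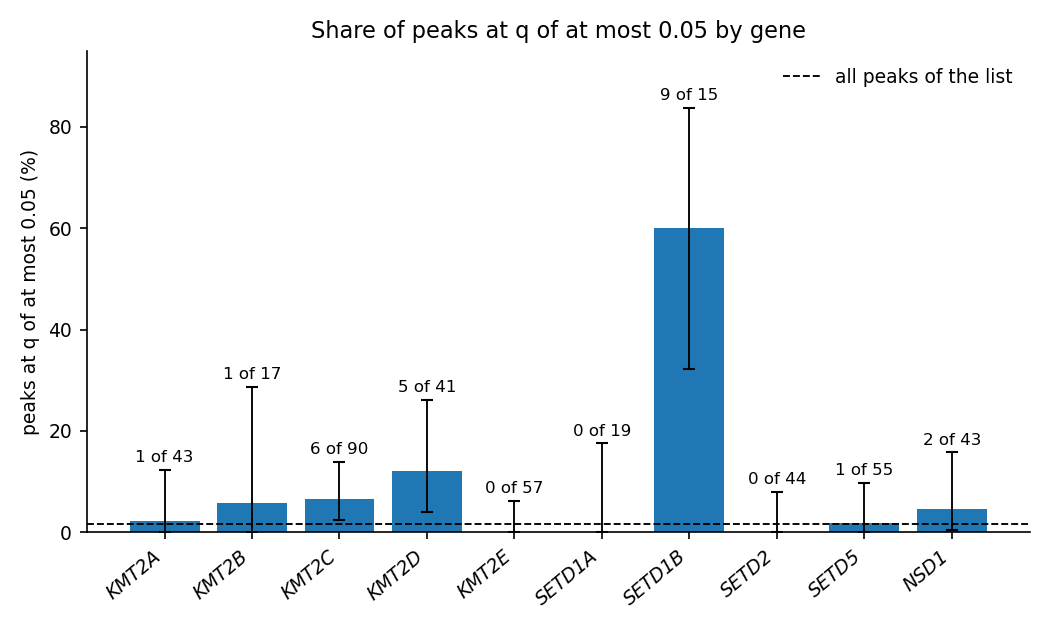
Share of each gene's peaks at q of at most 0.05, in percent, with the number of such peaks out of all its peaks above each bar. Error bars are exact binomial 95% intervals that cover counting error only, and the dashed line is the share over all 175546 peaks (1.63%). SETD1B stands at 60%, and its interval lies above those of the other 9 genes.

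The exonic peaks of the methyltransferase genes had a median fold of 2.43 (quartiles 1.90 and 3.12, 250 peaks), against a median of 1.94 over the 66681 exonic peaks of the list. A fold of 4 or more was found in 23 of the 250 (9.2%), against 2.88% of all exonic peaks, and a fold under 2 in 74 (29.6%), against 53.1%. They also rested on more reads. The median was 6 RIP fragments at an input level of 1.90, against 4 fragments at 0.648 over all exonic peaks, and only 1 of the 250 rested on a single fragment. Because 1 is added to both terms of the ratio, a peak on 1 fragment stays under a fold of 2. Of all exonic peaks in the list, 18.1% rested on 1 fragment, so the fold medians and fold bands above also depend on depth. At greater depth a given fold gives a smaller q, so the share of peaks past the q limit and the depth moved together here. The part of depth in these differences of fold and share was not tested. Under the highest exonic fold of each gene the input level ran from 0.183 in KMT2C to 3.24 in SETD2. It was 0.634 in KMT2B and NSD1. The fold intervals hold this level fixed, so they do not cover error in a low input.

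**Figure D2:**
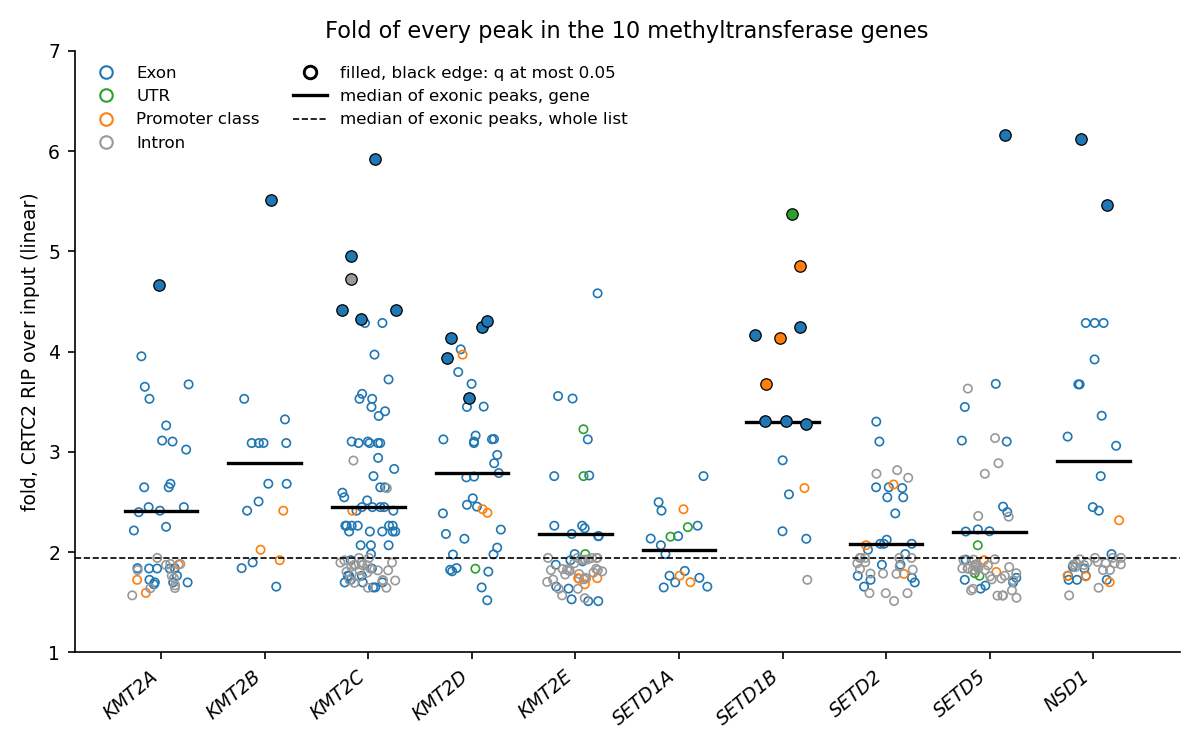
Fold of CRTC2 RIP over input for each of the 424 peaks, by gene, on a linear axis. Filled points with a black edge are peaks at q of at most 0.05, solid lines are each gene's median over exonic peaks, and the dashed line is the median over all exonic peaks of the list (1.94). Medians run from 2.02 in SETD1A to 3.30 in SETD1B, and intron peaks lie mostly under a fold of 2.

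SETD1B, a catalytic subunit of the COMPASS complex that trimethylates lysine 4 of histone H3, carried the densest signal of the group. Of its 15 peaks 9 were at q of at most 0.05, or 60% (32.3 to 83.7). Only 1 gene of the 19480 held more such peaks, TAF1 with 11 of 59. In its 10 exonic peaks, 6 of which reached this q, the lowest, median and highest fold were 2.13, 3.30 and 5.38. By this share of exonic peaks SETD1B ranked first of the 2110 genes with at least 10 of them. That limit is the number of SETD1B itself, and genes with fewer exonic peaks were not ranked. WEE1, named after its values were seen, had 3 of 4 exonic peaks at this q.

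The SETD1B signal ran from one end of the transcript to the other. Its first peak began 30 bp after the start site (hg38 chromosome 12, 121804039 to 121804248) and held 19 RIP fragments at a fold of 3.68 (2.29 to 5.64). Promoter-class peaks further along, at 121805123 to 121805245 and 121805847 to 121806119, had folds of 4.14 (2.24 to 7.13) and 4.85 (2.56 to 8.55). These 3 of its 4 promoter-class peaks reached q of 0.05, where 1.77% of all promoter-class peaks did. All 3 lie after the start site, and so inside the transcribed span.

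Within numbered exons of SETD1B, the fold was 4.24 (2.45 to 6.93) in exon 5 of 17, 3.28 (2.09 to 4.94) in exon 6, 3.31 (2.01 to 5.19) in each of exons 8 and 11, and 4.17 (2.59 to 6.39) in exon 14. Each of these peaks was at q of at most 0.05. Peaks in exons 7, 12 and 13 had folds between 2.13 and 2.92 and did not reach it. The highest fold lay in the 3′ UTR, in a peak 2415 bp wide (121830116 to 121832530), with 5.38 (3.30 to 8.33) on 18 fragments and a −log10 q of 4.67. This was the smallest q of the 424 peaks.

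SETD1A, the paralog that forms the same kind of complex, had no peak past the q limit. Of its 19 peaks 0 reached q of 0.05 (exact interval 0 to 17.6%), and −log10 q was 0 for all 19. Its 14 exonic peaks had a lowest, median and highest fold of 1.65, 2.02 and 2.76, and the highest lay in exon 6 of 19 (chromosome 16, 30964116 to 30964306) on 7 fragments, with an interval of 1.31 to 5.32. The paralogs were also set side by side at matched input levels. At an input level of 2.53, the exon 5 and 3′ UTR peaks of SETD1B held 14 and 18 RIP fragments, against 5, 6 and 7 in the peaks of SETD1A exons 5, 13 and 17. At an input level of 4.44, the 4 SETD1B exon peaks held 11, 13, 17 and 17 fragments, against 8 in exon 9 of SETD1A. The fold intervals overlapped in all 10 of these pairings of a SETD1B with a SETD1A peak, and the difference between them was not tested.

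**Figure D3:**
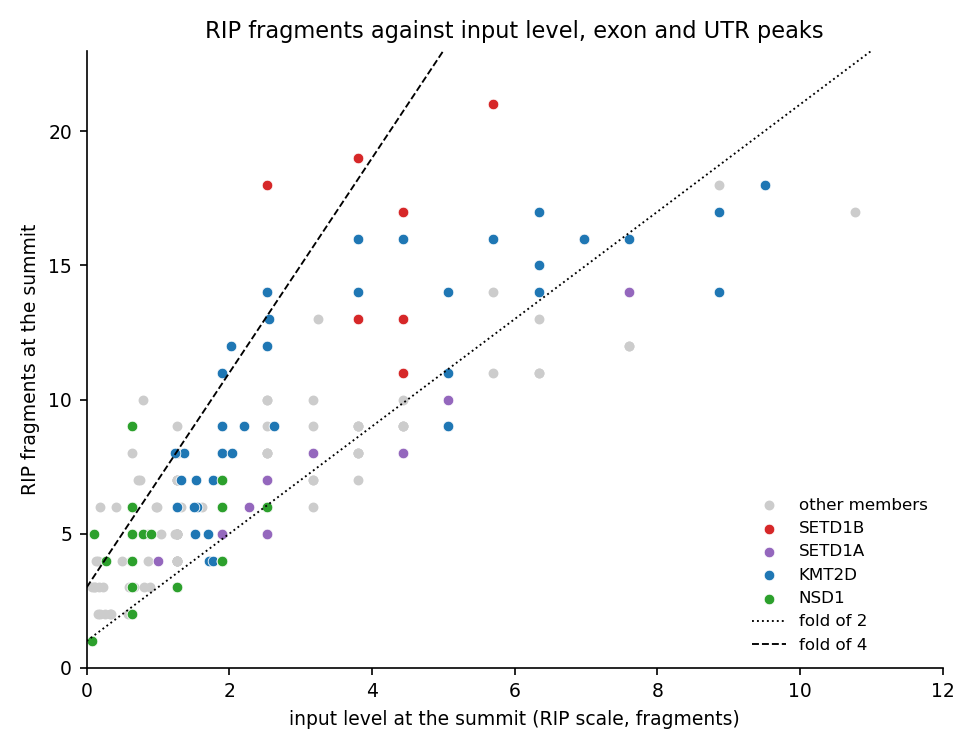
RIP fragments at the summit against the input level recovered for that summit, both linear and both on the scale of the RIP library, for the 250 exonic peaks. Lines mark folds of 2 (dotted) and 4 (dashed). SETD1B peaks (red) hold 11 to 21 fragments, and all lie above the fold of 2, while SETD1A peaks (purple) lie close to that line on either side.

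One SETD1A peak reached beyond the annotated transcript. The peak at its start site (chromosome 16, 30957630 to 30958070, fold 2.43 on 2 RIP fragments) began 124 bases upstream of the start, with its summit 104 bases after it. The 250 bases before the start site, from the RefSeq promoter table (GRCh38.p14, chr16:30957504-30957753, plus strand), are given 5′ to 3′ because they are the only stretch of a methyltransferase gene under a peak, upstream of every start site of that gene, whose sequence was at hand. Capitals mark the bases inside the peak.
SETD1A: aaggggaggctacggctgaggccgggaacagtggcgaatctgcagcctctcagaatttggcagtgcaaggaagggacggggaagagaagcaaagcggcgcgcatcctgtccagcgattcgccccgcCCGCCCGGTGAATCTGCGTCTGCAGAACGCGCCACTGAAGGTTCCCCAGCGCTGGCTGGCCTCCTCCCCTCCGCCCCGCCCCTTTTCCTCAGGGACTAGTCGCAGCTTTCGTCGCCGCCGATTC
With 2 fragments at the summit, this extension rests on few reads.

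KMT2C, a very large enhancer methyltransferase, had the most peaks of the group, 90, of which 61 were in exons. At any q, they covered 53 of its 59 annotated exons (89.8%), the highest coverage among the 10 genes, and only 7 genes of the list had more exonic peaks. In 6 of the 90 peaks q was at most 0.05, or 6.67% (2.49 to 13.9). All 6 lay late in the transcript. When exons were split at the middle of their numbering, 5 of 33 peaks in the later exons reached this q, against 0 of 28 in the earlier ones, at the same median input level of 1.27.

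The highest KMT2C fold was 5.92 (2.71 to 11.9) in exon 53 (chromosome 7, 152146570 to 152146728), on 6 RIP fragments over an input level of 0.183. Exon 56 reached 4.96 (2.27 to 9.95), exons 51 and 38 each 4.41, and exon 47 4.32 (1.81 to 9.72). The fold in exon 38 rested on 9 fragments, and those in exons 51 and 47 on 4 fragments each. A peak in intron 44 of 58, 191 bp wide (152157737 to 152157927), had a fold of 4.73 (2.07 to 9.98) on 5 fragments. This was the only intron peak of the 10 genes at q of at most 0.05. Among the earlier exons, exons 10 and 17 had folds of 4.28 on 6 fragments each at a −log10 q of 0.893. Part of the KMT2C gene has near-identical copies elsewhere in the genome, and how reads that match several copies were placed is not known here, so its values are uncertain to that extent.

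KMT2D, the paralog of KMT2C with the same substrate, carried 41 peaks, 37 of them in exons, and 5 at q of at most 0.05, or 12.2% (4.08 to 26.2). It was the member with the most deeply covered exons after SETD1B, with a median of 11 RIP fragments per exonic peak. Its highest exonic fold was lower than that of KMT2C, 4.31 against 5.92, and its median exonic fold higher, 2.79 against 2.45. The 5 peaks lay in exon 36 of 55 with 4.31 (2.39 to 7.28), exon 47 with 4.24 (2.45 to 6.93), exon 42 with 4.14 (2.24 to 7.13), exon 35 with 3.94 (2.23 to 6.54) and exon 10 with 3.54. The exon 36 peak was at chromosome 12, 49034795 to 49034845, on 12 fragments. Exonic folds had a lowest, median and highest value of 1.52, 2.79 and 4.31. The gene had no intron peak.

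KMT2A and KMT2B, the menin-dependent pair, each had 1 peak at q of at most 0.05. The KMT2B peak was found in exon 31 of 37 (chromosome 19, 35736745 to 35737275) and held 8 fragments at a fold of 5.51 (2.73 to 10.3). The next KMT2B peak, in exon 19, had 3.53 (1.68 to 6.80). The KMT2A peak was found in exon 25 of 36 (chromosome 11, 118501008 to 118501076) and held 7 fragments at 4.66 (2.22 to 8.99). KMT2A exon 3 stood at 3.95 (1.96 to 7.36) without reaching that q. The median exonic fold was 2.41 over 29 peaks in KMT2A and 2.89 over 14 peaks in KMT2B, at the same median input level of 1.27.

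Of the lysine 36 methyltransferases, NSD1 passed the q limit in 2 exons and SETD2 in none. NSD1 reached 6.12 (3.13 to 11.1) in exon 8 of 24 (chromosome 5, 177238262 to 177238507) on 9 fragments, and 5.46 (2.39 to 11.5) in neighbouring exon 7 (177235871 to 177235924) on 5. Exons 4, 9 and 21 of NSD1 each stood at 4.28 (1.96 to 8.61) on 6 fragments, at a −log10 q of 0.893. Of 10 peaks in its earlier exons 2 were at q of at most 0.05, with a median fold of 3.80, and of 12 in its later exons 0 were, with a median of 2.21. NSD1 had the lowest input level of the group, a median of 0.634 per exonic peak.

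SETD2 had 44 peaks and none at q of at most 0.05 (exact interval 0 to 8.04%). Its highest exonic folds were 3.30 (1.87 to 5.48) in exon 2 of 20, on 13 fragments (chromosome 3, 47120198 to 47120603), and 3.10 (1.54 to 5.78) in exon 14. The lowest and median exonic folds were 1.66 and 2.08 over 21 peaks. At a median of 8 fragments per exonic peak SETD2 was covered more deeply than NSD1, which had 5. The interval of the highest NSD1 fold overlapped that of the highest SETD2 fold.

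SETD5 and KMT2E are the SET-domain pair of debated activity, and the highest fold credited to each lay in 1 exon. In SETD5 it was exon 16 of 25 (chromosome 3, 9447136 to 9447318), with the highest fold of all 424 peaks, 6.16 (3.25 to 10.9), on 10 fragments. Among peaks credited to SETD5 the next exon, exon 7, had 3.68 (2.04 to 6.21). Higher peaks at its 3′ end, credited to a neighbour, are given further below. In KMT2E it was exon 18 of 26 (chromosome 7, 105105876 to 105106019), with 4.58 (2.18 to 8.83) on 7 fragments. Its −log10 q of 1.29 lay just outside the q limit, and none of the 57 KMT2E peaks passed it (exact interval 0 to 6.27%). The next KMT2E exon, exon 23, had 3.56 (1.63 to 7.14), an interval that overlaps that of exon 18. The median exonic folds were 2.21 in SETD5 and 2.18 in KMT2E, and 34 of 55 SETD5 peaks and 28 of 57 KMT2E peaks lay in introns.

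**Figure D4:**
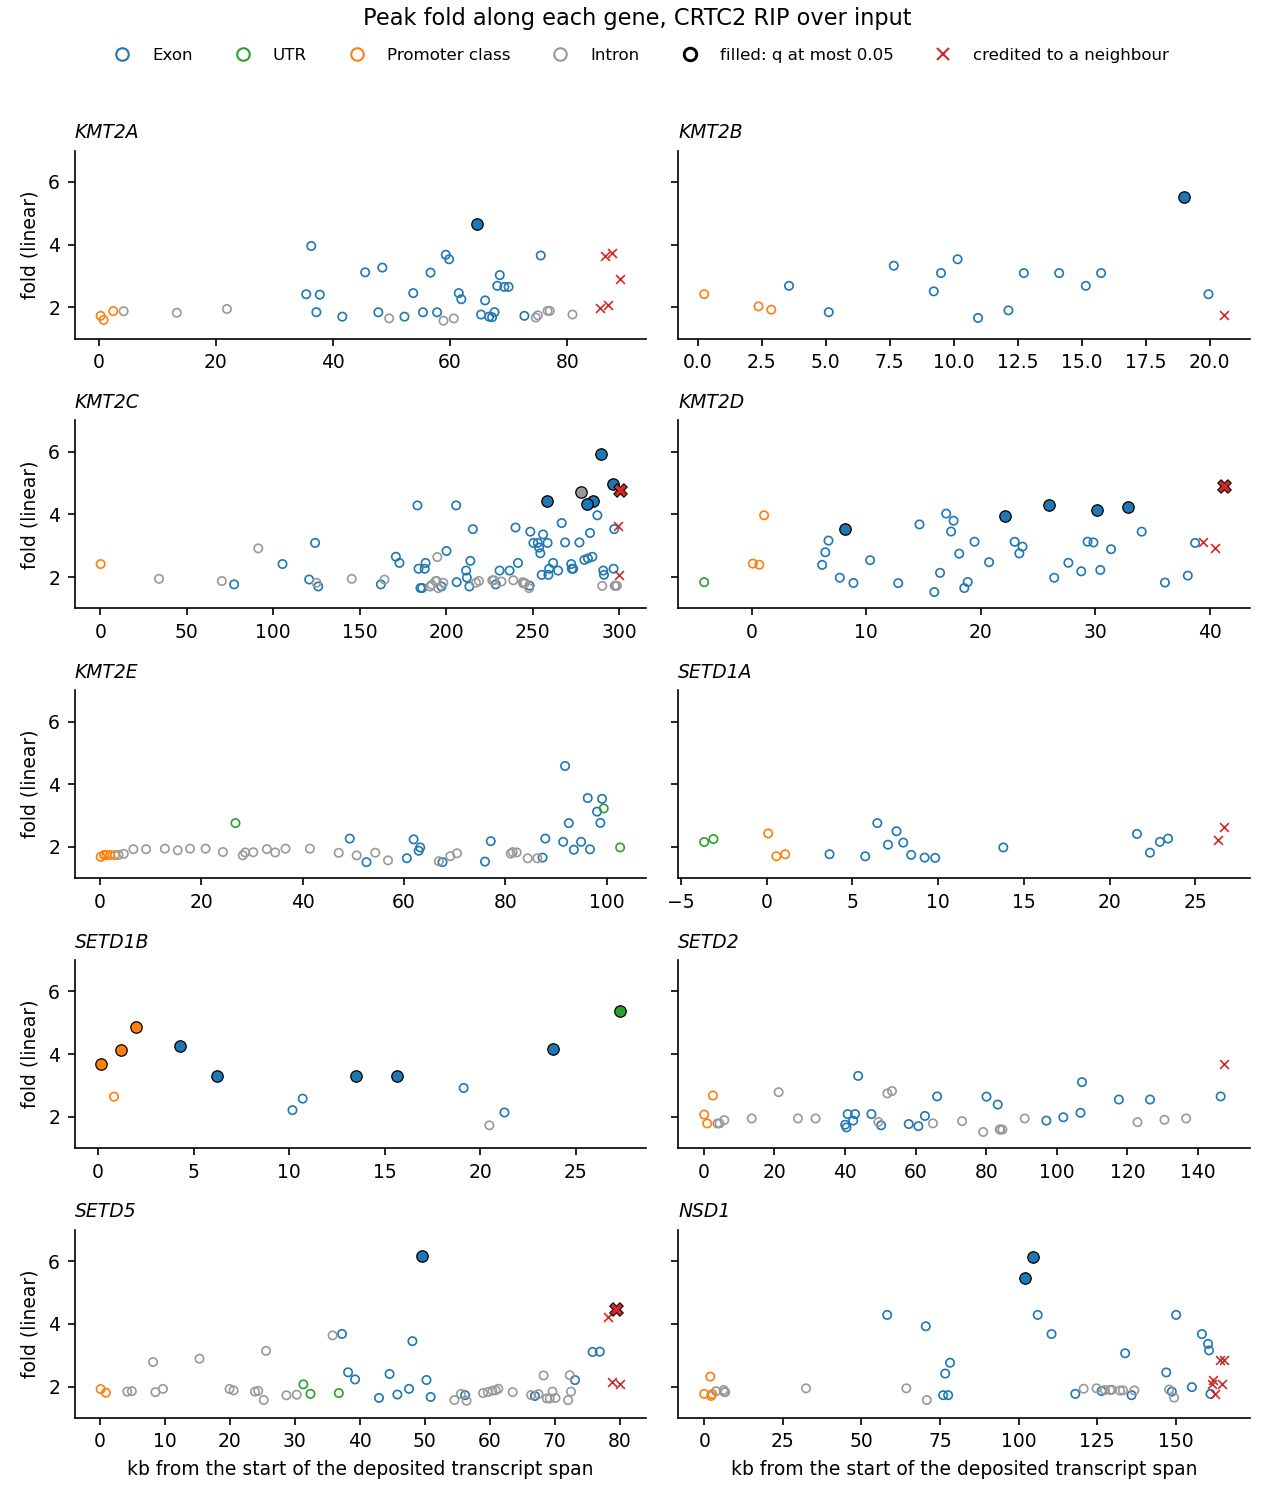
Fold of each peak (linear) against its distance in kb from the start of the gene's deposited transcript span, one panel per gene. Circles are peaks credited to the gene, filled with a black edge at q of at most 0.05, and red crosses are peaks inside the span that the annotation credits to a neighbouring gene, heavier at that q. Peaks past the limit lie along the whole of SETD1B and late in KMT2C, and crosses gather at the 3′ ends.

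The share of exons with a peak ran from KMT2B at the low end to KMT2C at the high end. Only exon-class peaks were counted, at any q and with 1 exon per peak, so exons under promoter-class or UTR peaks were left out. Exons with at least 1 peak made up 37.8% of the annotated exons in KMT2B (14 of 37), 47.1% in SETD1B (8 of 17), 52.8% in KMT2A and 54.5% in KMT2D, and 57.9% in SETD1A. In SETD5, SETD2, NSD1 and KMT2E they made up 64%, 70%, 70.8% and 73.1%, and in KMT2C 89.8% (53 of 59). Coverage by this count and signal past the q limit did not go together in every gene. SETD1B had the lowest coverage after KMT2B and the most such peaks, and KMT2E the second highest coverage after KMT2C and 0. The count leaves out 4 promoter-class peaks and 1 peak in the 3′ UTR of SETD1B, so its coverage may be understated.

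Promoter-class peaks numbered 31, with a median fold of 1.92, beside 1.92 over all 36636 such peaks in the list. The 3 at q of at most 0.05 were all in SETD1B, described above. Of the others the highest was in KMT2D, 1020 bp after its start site (chromosome 12, 49059626 to 49059774), with 3.97 (1.96 to 7.39) on 8 fragments at a −log10 q of 0.893. The promoter-class peaks of KMT2A, KMT2E and NSD1 had folds of at most 2.32.

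Intron peaks of the methyltransferase genes were shallow. Of 139, 121 rested on 1 RIP fragment (87.1%), and their median fold was 1.84, while 85.8% of all intron peaks of the list rested on 1 fragment, with a median fold of 1.85. The share at q of at most 0.05 was 0.719% (1 of 139) in these genes and 0.372% in all intron peaks. KMT2B, KMT2D and SETD1A had no intron peak. Across the 10 genes, 57.5% of peaks lay in exons (52.7 to 62.3), against 30.4% over the list.

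Exon peaks past the q limit were found on both sides of the middle of the exon numbering. In the later exons 14 of 135 peaks were at q of at most 0.05, with a median fold of 2.59, and in the earlier exons 6 of 109, with a median of 2.26, against 2.98% of all exon-class peaks of the list. The median input level was 1.90 on both sides. KMT2C and KMT2D supplied 9 of the 14 later peaks, and NSD1 and SETD1B 5 of the 6 earlier ones.

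The crediting of peaks to the nearest start site hid part of the 3′ ends. Inside the deposited spans of the 10 genes lay 25 further peaks credited to neighbours, 19 of them in the 3′ UTR class and 6 in the promoter class. At q of at most 0.05 were 3. In the 3′ UTR of KMT2C a peak 794 bp wide (chromosome 7, 152135026 to 152135819), credited to GALNT11, had a fold of 4.78 (2.09 to 10.1) on 5 fragments. At the 3′ end of KMT2D a peak (chromosome 12, 49019329 to 49019822), credited to PRKAG1 as promoter class, had 4.90 (2.33 to 9.44) on 7 fragments.

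At the 3′ end of SETD5 a peak of 705 bp (chromosome 3, 9476691 to 9477395), credited to LHFPL4, had 4.48 (2.48 to 7.57) on 12 fragments, and its neighbour at 9475509 to 9476106 had 4.21 (2.15 to 7.61). NSD1 had 6 such peaks, with folds of 1.76 to 2.84, and KMT2A 5. The rule also erred the other way: 4 of the 10 UTR peaks credited to these genes lay outside the assigned transcript, 2 of them at SETD1A. With the 25 peaks added, 28 of 449 peaks were at q of at most 0.05 and the same number of genes, 7, held an exonic one.

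The partner genes of these enzymes were counted in the same way. The complexes of KMT2A to KMT2D, SETD1A and SETD1B share a core of 4 subunits. Exonic peaks were found in 3 of these, and 0 reached q of 0.05, against 12.5% of all genes with an exonic peak. Their highest folds were 2.51 for RBBP5, on 2 fragments, and 2.21 for ASH2L, on 4. Of 13 other subunits or partners, found with some of these complexes but outside the shared core, 10 had an exonic peak and 3 reached q of 0.05. These were KDM6A (4.90-fold, 2.33 to 9.44), the lysine 27 demethylase of the KMT2C and KMT2D complexes, HCFC2 (4.43, on 4 fragments) and HCFC1 (4.41, on 9), chromatin adaptors. No exonic peak was found for MEN1, which encodes menin, CXXC1 or PAGR1, named here after their values were seen.

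Of 11 other lysine 36 methyltransferases and proteins that bind methylated lysine 36, all 11 had exonic peaks and 2 reached that limit (18.2%, near the 12.5% of all genes with an exonic peak). These were BRPF1 (5.51-fold, 2.73 to 10.3), a scaffold of a histone acetyltransferase complex, and NSD3 (5.19, 2.27 to 10.9), a paralog of NSD1. A list for other histone sites held 16 genes, including Polycomb partners and also SETD7, which methylates lysine 4 of histone H3. Of these, 14 had an exonic peak and 2 passed the limit (12.5% of the list, beside 12.5% of all genes with an exonic peak). The 2 were KMT5B (6.05, on 6 fragments), which methylates histone H4, and EZH2 (5.19, on 5), which methylates lysine 27 of histone H3. No peak was credited to EHMT2.

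The enzymes that remove these marks reached the limit in 6 of 10 genes, against 12.5% of all genes with an exonic peak and 34.1% of those with at least 10. KDM5A (5.44-fold, 2.38 to 11.5, on 5 fragments), a lysine 4 demethylase, was highest, before KDM4C (4.55, on 4), KDM1A (4.41, on 9) and KDM2A (3.96, on 13). The other two, KDM4B and KDM5B, did so on 3 fragments each. The KDM4B peak spanned 16152 bp with an input level of 0.0298, the lowest in the list, and the KDM5B peak 17116 bp with 0.0393. Among 18 subunits of the SWI/SNF chromatin remodelling complexes, all with an exonic peak, 3 reached it, SMARCC1 (5.76-fold), PBRM1 (4.83) and BRD9 (4.49). The share of exonic peaks at q of at most 0.05 was 8.4% in the 10 methyltransferase genes, 5.19% in the demethylase genes and 1.42% in the SWI/SNF genes, against 2.67% of all exonic peaks. SETD1B alone held 6 of the 21 exonic peaks behind the 8.4%. These lists too were made with earlier results of these data in view.

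Cell type markers were counted too, but peaks of RIP over input do not measure expression, so the counts cannot check the cell label. Of 13 hepatocyte and epithelial marker genes, 10 were credited with a peak and 6 had an exonic one. APOB, a liver-secreted apolipoprotein, was the only one at q of at most 0.05. That is 7.69% of these markers, beside 12.5% of all genes with an exonic peak. The APOB peak, 6408 bp wide, had a fold of 3.88 on 3 fragments over an input level of 0.0298, the lowest in the list. SERPINA1, GPC3 and EPCAM had no peak. Of 11 blood and stromal markers, 6 had a peak and 2 an exonic one, PECAM1 (3.88 at that q, on the same fragments and input level as APOB, in a peak of 21396 bp) and LUM (2.49). PECAM1 was the only one of the 11 with an exonic peak at that q, or 9.09%.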

How the data were processed

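The deposited data are 1 list of peaks from 1 CRTC2 RIP and 1 input library of HCCLM3 cells. Per the submitters' processing notes HISAT2, MACS2 and hg38 were used (versions not stated there). The deposited list holds, per peak, a fold (the authors' linear ratio of RIP over control, treated here as input), −log10 p and −log10 q in columns with spoiled headers, identified by place and values, and a score equal to 10 times the −log10 p rounded down. Peak width, summit and distance to the start site are deposited too. The lowest −log10 p is 1.3.

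RIP fragments n and input level were recovered from fold = (n + 1) / (level + 1) and a Poisson tail for p, within 0.001, for 100% of peaks and all 424 peaks of the methyltransferase genes, of which 417 had 1 solution. The recovery was tested on data simulated with these same formulas, which cannot show that the peak caller used them. The lowest recovered input level, 0.0298, was shared by 10.3% of all peaks and by 0 exonic peaks of the methyltransferase genes. Total library depth is not given in the sources used here. Python 3.11.15, pandas 2.3.3 and scipy 1.17.1 were used.

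The genes and lists were chosen with earlier results of these data known. All 10 genes are named with their highest exonic peak and peaks at q of at most 0.05. Of each other list, the 2 genes of highest exonic fold, up to 4 with an exonic peak at that q, and genes without any peak where 3 or fewer, are named. A marker gene that this rule would name is not reported here. Of 106 symbols, 94 were linked by the deposited columns and the others by the RefSeq table. With 1 library per group no test was run.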

Additional observations from a re-analysis of the deposited data

How the results depend on the processing

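No paired analysis was possible because there was 1 library per group and no test. Thresholds, filters and gene assignment were varied as listed here, the addition of neighbours' peaks and the omission of SETD1B after the data were seen. Of 93 comparisons of a gene's highest exonic fold with its value under an alternative, 4 moved it by over 1.5 times: under both gene assignments KMT2C had 3.09 in place of 5.92 and KMT2B 3.53 in place of 5.51. Genes left without an exonic peak by a limit gave no value there. Peaks at q of at most 0.05 numbered 25, but 11 at −log10 q of at least 2, 12 when every peak went to the nearest gene, 11 when exon and intron peaks were kept only where annotation and nearest gene agree, and 16 without SETD1B; the other settings that kept this q gave 23 to 28. Genes with such an exonic peak, 7, numbered 4 and 3 under these gene assignments, because the credit for 179 of 383 exon and intron peaks passes to another gene, and 6 or 7 otherwise. With a fold of at least 4 in place of q, 26 peaks and 8 genes passed, KMT2E being added. The median exonic fold of 2.43 became 5.46 over peaks past −log10 q of 2, 4.32 over peaks of 4-fold or more, 2.56 with at least 5 RIP fragments, 2.21 under both gene assignments, and 2.64 with peaks within 500 bp merged. The exon share of 57.5% was 72.7%, 84.6% and 90.2% under the first 3 of these limits, which select deeper peaks, and 46.5% and 46.1% under the assignments. A limit of 1 kb in width gave 23 peaks, 7 genes, a median of 2.41 and a share of 60.6%, and a limit to main chromosomes changed none of these 4. Depth limits single peaks: those at q of at most 0.05 rested on 4 to 21 RIP fragments.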

Other observations

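SETD1B, KMT2C and KMT2D were among the genes with the most peaks at q of at most 0.05, and the other 7 methyltransferase genes, with 0 to 2 such peaks, were not. After TAF1 with 11 and SETD1B with 9, JAG1, a Notch ligand, had 8 of 25 peaks, and KMT2C shared the next place among protein-coding genes, at 6, with HTT (6 of 64) and MACF1 (6 of 95). KMT2D, at 5 of 41, was 1 of 16 genes with 5, among them KAT6A, a histone acetyltransferase gene (5 of 27), the Wnt effector TCF7L2 (5 of 64) and TRIO (5 of 160). JAG1, HTT, KAT6A, TCF7L2 and TRIO were named after their values were seen.

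The 5 genes outside the group whose share of exonic peaks at this q and median exonic fold lay nearest to the pooled values of the methyltransferase genes (8.4% and 2.43), by distance of ranks among genes with at least 10 exonic peaks, were KIAA1671, TLE1, FNBP1L, MACF1 and TASOR2. Their shares ran from 8.33% to 9.09% and their median folds from 2.39 to 2.45. In KIAA1671, TLE1 and FNBP1L the share was 1 of 12 exonic peaks, in TASOR2 2 of 22 and in MACF1 6 of 67.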
